A study of Mus musculus with 10 samples.

Results

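Expression of 10 dendritic cell subset genes was measured by polyA RNA sequencing in the 10 CT26 tumors of the series. The genes were Xcr1, Clec9a, Batf3, Flt3, Zbtb46, Cd209a, Ccr7, Fscn1, Il12b and Ccl22, chosen by name, and all 10 were found once among the 36009 genes of the count table. The tumors were grown under the skin of wild-type female BALB/c mice from CT26, a colorectal carcinoma line of that strain. Each was debulked before a hydrogel releasing poly(I:C), a synthetic double-stranded RNA, was placed on what remained, and the piece removed was sequenced. All 10 libraries are therefore untreated tissue. They were grouped by what the residual tumor later did under the hydrogel, with 6 responders whose tumors regressed completely and 4 non-responders whose growth was not delayed. The labels give no age and no batch, every tumor comes from 1 cell line at 1 site, and the library samples the whole removed piece with its host cells. The comparison addresses which dendritic cell genes differ, before treatment, between tumors that go on to respond and those that do not.

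Dendritic cells take up antigen in a tissue, carry it to the draining lymph node and present it to T cells. Conventional dendritic cells come in 2 main types. Type 1 cells (cDC1) depend on the transcription factor Batf3, carry the chemokine receptor Xcr1 and the dead-cell receptor Clec9a, and are known for presenting tumor antigen to CD8 T cells. Type 2 cells (cDC2) mainly prime CD4 T cells, and Cd209a is carried by some of them and by dendritic cells that arise from monocytes. Flt3 is the cytokine receptor that dendritic cell growth depends on, and Zbtb46 is a transcription factor that marks the conventional lineage. On maturation either type raises Ccr7, the receptor that guides it to the lymph node, Fscn1, an actin-bundling protein of dendrites, Il12b, a subunit shared by IL-12 and IL-23, and Ccl22, a chemokine that attracts T cells carrying Ccr4.

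Of these genes, Xcr1 alone was called higher in responders and none was called lower by edgeR's quasi-likelihood test (adjusted p under 0.05 over all 16041 genes tested). All 10 genes passed the filter on low counts and were tested. Among all genes tested, 4.71% were called higher and 3.35% lower, and 1 call among 10 genes is close to that background and not a result about the set. The estimates split evenly, with 5 above 0 and 5 below, and their median log2 fold change was -0.0099 against -0.0086 over all genes tested. At an unadjusted p under 0.05, Xcr1 and Clec9a passed, 2 of 10, where 29.1% of all genes tested did. The 3 largest estimates were those of Xcr1 at 1.46, Clec9a at 0.61 and Batf3 at 0.54 on the log2 scale, of which the last 2 did not pass, and the general and maturation genes were mixed in order below them.

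**Figure D1:**
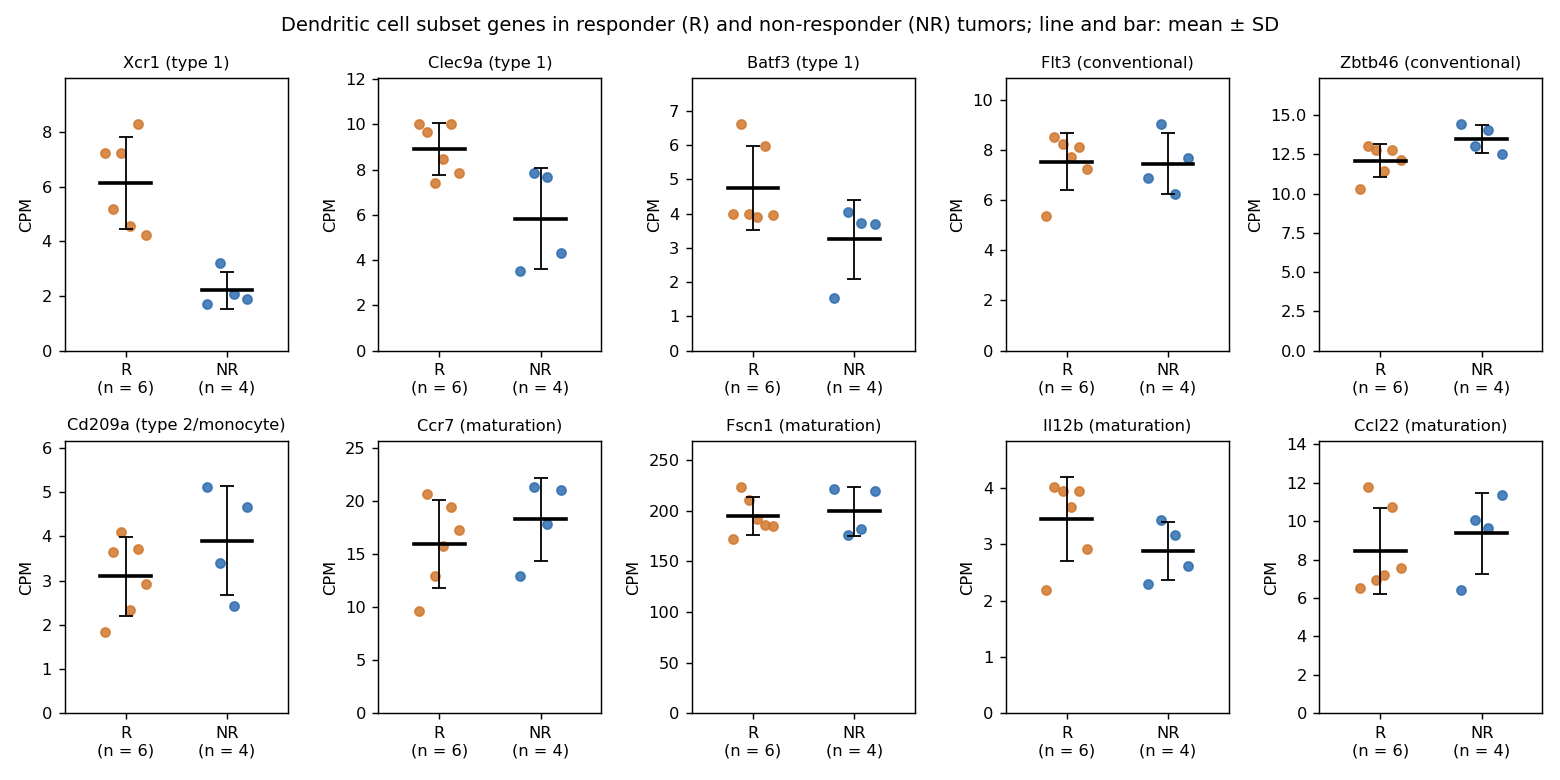
CPM (counts relative to the TMM-scaled library size) of each of the 10 genes in every tumor, with responders (R, orange, n = 6) and non-responders (NR, blue, n = 4) as points and mean ± SD in black. The groups separate for Xcr1, with 4.23 CPM in the lowest responder and 3.21 CPM in the highest non-responder, and overlap for the other 9 genes.

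Depth was 29065126 to 38042544 estimated counts in responders and 23374649 to 32986456 in non-responders. No library was a repeat of another, since the chi-square per degree of freedom between them, over 45 pairs, was at least 10. P-values measure the spread between these tumors, for which no batch is named. Ptprc, the gene of the pan-leukocyte antigen CD45, was higher in responders, at 380.5 ± 63.1 CPM (SD, n = 6) against 250.6 ± 55.6 CPM (SD, n = 4; edgeR adjusted p = 0.0413), a call kept in 2 of the 10 fits that left out 1 tumor. Its groups did not overlap, with 326.2 CPM in the lowest responder and 307.4 CPM in the highest non-responder. A fit with Ptprc as a covariate can therefore hardly separate that term from response. Of 8 markers of the labelled colorectal cell type, 3 were tested and none was called. Epcam, Cdx1, Krt8, Krt18 and Vil1 were each below 1 CPM in every tumor, while Krt20 was at 29.1 ± 9.8 CPM (SD, n = 6) in responder tumors and 52.9 ± 18.5 CPM (SD, n = 4) in the others. Cdh1 was at 2.63 to 6.52 CPM in responders and 4.99 to 7.03 CPM in non-responders, and Cdx2 at 0.364 to 0.858 and 0.694 to 1.62 CPM. In bulk tissue, fewer cells of a type and less RNA per cell cannot be told apart. Tumors also stood apart within their group. Responder 1 was the lowest of all 10 tumors for 6 of the genes (Flt3, Zbtb46, Cd209a, Ccr7, Fscn1 and Il12b) and the highest for Clec9a. Non-responder 1 was the lowest for 4 (Xcr1, Clec9a, Batf3 and Ccl22) and the highest for Zbtb46 and Cd209a.

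Xcr1 (ENSMUSG00000060509, GRCm38 chromosome 9, 123852315 to 123862029, minus strand) encodes the receptor for the chemokine Xcl1, which NK cells and CD8 T cells release. It was at 7.26, 5.18, 7.26, 4.55, 8.31 and 4.23 CPM in responders 1 to 6, and at 1.70, 3.21, 2.08 and 1.90 CPM in non-responders 1 to 4. Every responder lay above every non-responder, which was so for 5.84% of all genes tested. The means were 6.13 ± 1.69 CPM (SD, n = 6) and 2.22 ± 0.678 CPM (SD, n = 4), a 2.76-fold difference with a 95% interval of 1.89 to 4.02 (edgeR adjusted p = 0.0222, log2 fold change 1.46, SE 0.25). The gene ranked 66 by p among the 16041 tested. It rests on 42.2 to 297.1 estimated counts per tumor. The call was lost without responder 3 (adjusted p = 0.0566), non-responder 1 (0.0556) or non-responder 4 (0.0639) in the same edgeR test, with log2 fold changes of 1.41, 1.36 and 1.39. With Ptprc as a covariate it was 0.67 on the log2 scale (edgeR adjusted p = 0.915, unadjusted p = 0.0188), a fit in which none of the 16041 genes passed and 845 had an unadjusted p under 0.05.

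Clec9a (ENSMUSG00000046080, chromosome 6, 129408862 to 129424763, plus strand) encodes a C-type lectin that binds actin exposed by dead cells. It was at 10.02, 9.65, 7.40, 8.45, 10.02 and 7.86 CPM in responders 1 to 6, and at 3.51, 7.84, 7.67 and 4.31 CPM in non-responders 1 to 4. Non-responders fell into a low pair (1 and 4) and a pair (2 and 3) at the level of the lower responders, and 5 of the 6 responders exceeded every non-responder. The means were 8.90 ± 1.15 CPM (SD, n = 6) and 5.84 ± 2.24 CPM (SD, n = 4), and the difference did not pass (log2 fold change 0.61, SE 0.22, edgeR adjusted p = 0.0913). DESeq2 called it (adjusted p = 0.0337), as did edgeR without non-responder 2 (adjusted p = 0.0454). Clec9a shares 184 exonic bases with Clec1b on the same strand, so some reads may have been divided between these genes.

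Batf3 (ENSMUSG00000026630, chromosome 1, 191097847 to 191108945, plus strand) encodes the AP-1 family factor that type 1 cells require. It was at 3.995, 6.62, 3.99, 3.89, 5.96 and 3.97 CPM in responders 1 to 6, and at 1.53, 4.03, 3.73 and 3.71 CPM in non-responders 1 to 4. Apart from high values in responders 2 and 5 and a low value in non-responder 1, the other tumors lay between 3.71 and 4.03 CPM, whichever group they came from. The log2 fold change was 0.54 (SE 0.26, 95% interval -0.036 to 1.12), which did not pass (edgeR adjusted p = 0.198). With Ptprc as a covariate, Clec9a was at -0.0024 and Batf3 at -0.19 on the log2 scale. The direction of both thus depended on a term that itself separates the groups.

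Relative to 1000 counts of Ptprc in the same tumor, Xcr1 was at 15.9 ± 2.74 counts (SD, n = 6) for responders against 8.85 ± 1.36 (SD, n = 4) for non-responders, with the lowest responder at 12.8 and the highest non-responder at 10.5. Relative to Ptprc, all responders lay above all non-responders for 0.449% of the other genes tested, or 72 of 16040. Clec9a was at 23.7 ± 3.36 against 22.7 ± 4.39 and Batf3 at 12.5 ± 2.84 against 12.7 ± 3.09 on the same scale (SD, n = 6 and 4), and both overlapped. Zbtb46 (32.3 ± 4.59 against 56.5 ± 16.3), Ccr7 (42.5 ± 11.8 against 73.6 ± 11.6) and Ccl22 (22.3 ± 5.35 against 37.8 ± 7.37) had all responders below all non-responders on this scale, which was so for 43.7% of the other genes tested and says little about these 3. The ratios to Ptprc are descriptions with no test.

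The start regions of these type 1 genes are shown because Batf3 acts on AP-1 sites as a partner of other factors. Sequences are the 250 bases before the RefSeq start on GRCm38.p6, read 5′ to 3′ on the strand of the gene, and RefSeq held 9 of the 10 genes (not Ccr7). Capitals mark a match to the word GAGGAAG for the myeloid factor PU.1, which was searched on both strands together with the AP-1 word TGANTCA. These words cannot overlap. The windows lie at chr9:123862030-123862279 (minus), chr6:129408612-129408861 (plus) and chr1:191098164-191098413 (plus), in the order printed.
Xcr1: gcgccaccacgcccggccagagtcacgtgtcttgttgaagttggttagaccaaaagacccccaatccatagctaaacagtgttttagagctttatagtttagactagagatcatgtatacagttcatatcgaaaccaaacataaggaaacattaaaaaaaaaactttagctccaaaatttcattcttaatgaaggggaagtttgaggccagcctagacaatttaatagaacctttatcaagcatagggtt
Clec9a: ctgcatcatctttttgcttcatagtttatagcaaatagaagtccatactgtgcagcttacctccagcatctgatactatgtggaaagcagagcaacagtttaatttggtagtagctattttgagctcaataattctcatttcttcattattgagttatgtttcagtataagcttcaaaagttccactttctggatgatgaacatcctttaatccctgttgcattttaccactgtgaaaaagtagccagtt
Batf3: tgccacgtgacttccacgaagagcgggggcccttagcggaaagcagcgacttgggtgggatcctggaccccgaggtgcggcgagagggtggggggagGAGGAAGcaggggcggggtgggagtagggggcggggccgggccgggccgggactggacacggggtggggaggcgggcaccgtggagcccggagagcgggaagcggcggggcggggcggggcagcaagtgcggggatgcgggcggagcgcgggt
Xcr1 and Clec9a held neither word, and their windows were AT-rich, with 38.8% and 35.6% G and C against 76% in Batf3. Batf3 held the PU.1 word with its first base 153 bases before the RefSeq start. Its whole window lies inside the annotated gene, which begins at base 191097847. The PU.1 word was found in 10.6% of 32851 mouse promoters. Among the 9 genes, the AP-1 word was in Zbtb46 alone (TGACTCA, first base 61 before a RefSeq start that lies inside the annotated gene) and in 6.75% of promoters.  A match is a string of letters in this window and was not measured as binding.

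The general conventional dendritic cell genes showed no call. Flt3 (ENSMUSG00000042817, chromosome 5, 147330741 to 147400489, minus strand) was at 5.36, 8.52, 8.22, 7.72, 8.11 and 7.25 CPM in responders 1 to 6 and at 6.86, 9.03, 6.24 and 7.66 CPM in non-responders 1 to 4. The groups overlapped throughout, with the single highest tumor a non-responder and the lowest a responder. The log2 fold change was 0.014 with a 95% interval of -0.29 to 0.32 (SE 0.14, edgeR adjusted p = 0.959), and it turned negative when responder 2, 3 or 5 or non-responder 1 or 3 was left out.

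Zbtb46 (ENSMUSG00000027583, chromosome 2, 181387762 to 181459426, minus strand) was at 10.3, 13.05, 12.8, 11.45, 12.8 and 12.1 CPM in responders 1 to 6 and at 14.45, 13.03, 14.05 and 12.5 CPM in non-responders 1 to 4. It was among the steadiest of the genes, its highest tumor at 1.40 times its lowest, and both of the highest values were non-responders. The log2 fold change was -0.16 (SE 0.08, 95% interval -0.33 to 0.015, edgeR adjusted p = 0.209). It kept a negative sign in all 19 alternative fits.

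Cd209a (ENSMUSG00000031494, chromosome 8, 3743397 to 3748984, minus strand), a mouse relative of the lectin DC-SIGN, was at 1.83, 3.65, 4.09, 2.34, 3.72 and 2.92 CPM in responders 1 to 6 and at 5.13, 3.40, 2.43 and 4.68 CPM in non-responders 1 to 4. Non-responders 1 and 4, the low pair for Clec9a, held the 2 highest Cd209a values. The log2 fold change was -0.34 (SE 0.25, 95% interval -0.90 to 0.22, edgeR adjusted p = 0.403). Cd209a has close paralogs, so its estimated counts are uncertain.

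The maturation genes overlapped between the groups as well. Ccr7 (ENSMUSG00000037944, chromosome 11, 99144196 to 99155077, minus strand) was at 9.65, 20.6, 12.9, 15.8, 19.4 and 17.3 CPM in responders 1 to 6 and at 12.9, 21.4, 17.8 and 21.1 CPM in non-responders 1 to 4. Values near the top of the range occurred in both groups. The log2 fold change was -0.20 (SE 0.20, 95% interval -0.65 to 0.25, edgeR adjusted p = 0.557).

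Ccl22 (ENSMUSG00000031779, chromosome 8, 94745590 to 94751699, plus strand) was at 6.53, 11.8, 6.95, 7.19, 10.7 and 7.54 CPM in responders 1 to 6 and at 6.42, 10.1, 9.63 and 11.4 CPM in non-responders 1 to 4. High and low tumors occurred in both groups, and the log2 fold change was -0.15 (SE 0.20, 95% interval -0.59 to 0.29, edgeR adjusted p = 0.664).

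Il12b (ENSMUSG00000004296, chromosome 11, 44400063 to 44414033, plus strand) was at 2.20, 4.03, 3.96, 3.66, 3.95 and 2.92 CPM in responders 1 to 6 and at 2.30, 3.43, 3.17 and 2.62 CPM in non-responders 1 to 4. The 4 highest tumors were responders and the single lowest was responder 1. The log2 fold change was 0.26 (SE 0.19, 95% interval -0.16 to 0.68, edgeR adjusted p = 0.387), and it was -0.11 with Ptprc as a covariate.

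Fscn1 (ENSMUSG00000029581, chromosome 5, 142960343 to 142973185, plus strand) was at 171.9, 224, 211, 192.2, 186.3 and 184.7 CPM in responders 1 to 6 and at 221.7, 175.9, 181.8 and 219.2 CPM in non-responders 1 to 4. It varied least, its highest tumor at 1.30 times its lowest, and its log2 fold change was -0.034 (SE 0.09, 95% interval -0.23 to 0.16, edgeR adjusted p = 0.836). Fscn1 is also made by many tumor and stromal cells, and its source was not measured here. The cell source of Ccr7, Zbtb46 and the other genes was not measured in this bulk tissue either.

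**Figure D2:**
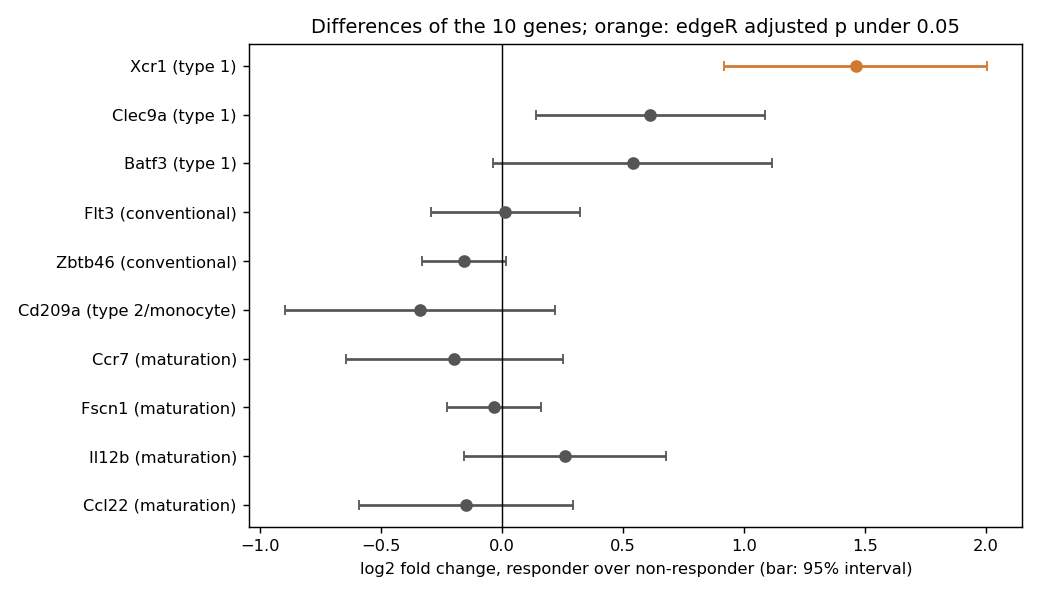
Log2 fold change of each of the 10 genes, responder over non-responder (x axis), with its 95% interval from edgeR as the bar and the gene with an adjusted p under 0.05 in orange. Xcr1 stands at 1.46 with an interval of 0.92 to 2.01, the interval of Clec9a also lies above 0, and the other 8 intervals include 0.

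The widths of these intervals differ by gene. For Fscn1 the data leave a fold of 0.853 to 1.12 and for Zbtb46 of 0.794 to 1.01, while for Cd209a they leave 0.536 to 1.16 and for Ccr7 0.639 to 1.19. The 2.76-fold estimate of Xcr1 lies above the upper bound of each of the other 9 genes. The intervals of Clec9a and Batf3, which reach 2.12-fold and 2.17-fold, still overlap that of Xcr1, and the difference between genes was not tested.

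Within a tumor, the level of a type 1 gene relative to a maturation gene does not depend on library scaling. These 12 ratios were chosen after the values above had been seen and are given as a description with no test. Both genes of each ratio were read in bulk tissue, and whether their counts came from dendritic cells was not measured. Xcr1 relative to Ccr7 was at log2 ratios of -0.41, -1.99, -0.83, -1.80, -1.22 and -2.03 in responders 1 to 6 and at -2.92, -2.73, -3.11 and -3.46 in non-responders 1 to 4. The tumors of the groups did not overlap, and the geometric mean was 0.384 counts of Xcr1 per count of Ccr7 in responders against 0.12 in non-responders, a log2 difference of 1.67. Relative to Ccr7, all responders lay above all non-responders for 5.42% of the other genes tested.

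Xcr1 also separated the groups relative to Fscn1 (log2 difference 1.49), Il12b (1.21) and Ccl22 (1.62), where 2.37%, 1.05% and 3.85% of genes did so. Clec9a separated them relative to Ccr7 (0.90) and Ccl22 (0.84), and Batf3 relative to Ccr7 (0.82) and Ccl22 (0.76). Both Clec9a margins were narrow, with -1.14 in the lowest responder and -1.21 in the highest non-responder relative to Ccr7. Relative to Ccl22 these values were -0.292 and -0.328. Batf3 per Ccl22 was tight in responders, at a log2 ratio of -0.83 ± 0.076 (SD, n = 6), and lower in non-responders, at -1.59 ± 0.34 (SD, n = 4). Clec9a and Batf3 overlapped between the groups relative to Fscn1 and to Il12b. Of the 12 ratios, 8 had no overlap. With each tumor left out in turn, the log2 difference of Xcr1 to Ccr7 was 1.48 to 1.80. The ratios share genes and tumors and are not separate observations.

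**Figure D3:**
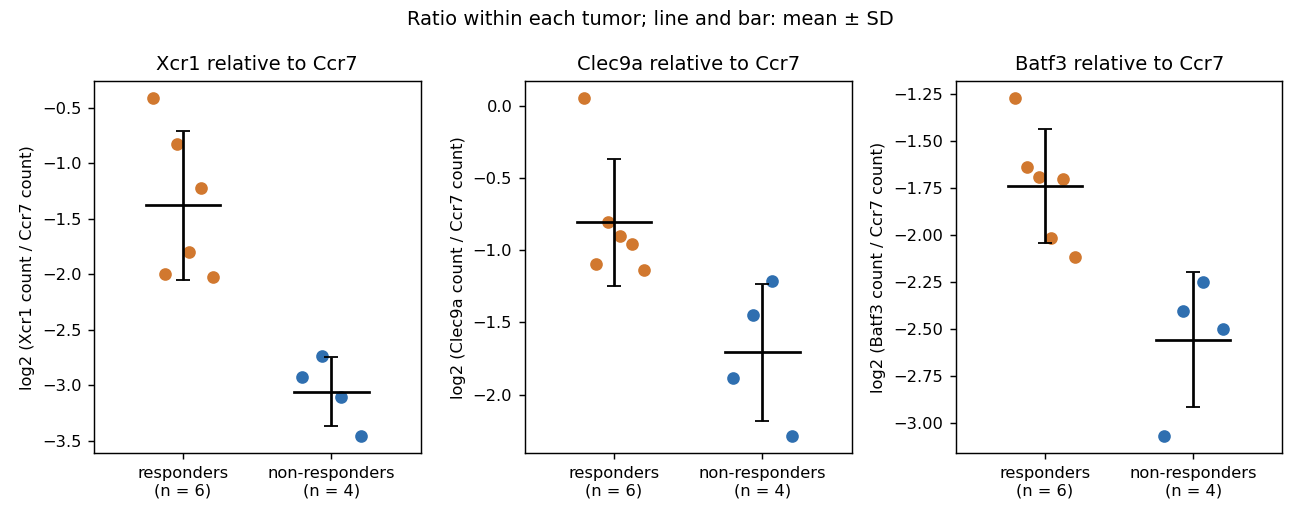
Log2 ratio of the estimated count of Xcr1, Clec9a or Batf3 to that of Ccr7 in the same tumor (y axis), for responders (orange, n = 6) and non-responders (blue, n = 4), with mean ± SD in black. In each panel the 6 responders lie above the 4 non-responders, by the widest margin for Xcr1 (-1.38 against -3.06 on average).

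Among 7 pairs of genes chosen to ask whether genes of a type, a state or a receptor and its ligand vary together, Ccr7 and Ccl22 did. Over the 10 tumors Pearson's r of log2 CPM was 0.877 (permutation p = 0.00033, adjusted p = 0.00132 over 4 pairs) and Spearman's rho 0.879 (permutation p = 0.00158, adjusted p = 0.00632). Leaving out the tumors farthest from the Ccr7 median, which were responders 1 and 3, gave an r of 0.918. Within the 6 responders the ranks of both genes were identical (rho 1.0, exact permutation p = 0.00278, adjusted p = 0.0195 over 7 pairs), while r was 0.829 (exact permutation p = 0.0514, adjusted p = 0.33). Non-responders, with 4 tumors, got no value of their own.

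Ccr7 did not track the other maturation genes to that degree. With Il12b, r was 0.511 (permutation p = 0.132, adjusted p = 0.264) and rho 0.285 (permutation p = 0.428, adjusted p = 0.571) over 10 tumors. With Fscn1, r was 0.149 (permutation p = 0.686, adjusted p = 0.686) and rho 0.103 (permutation p = 0.786, adjusted p = 0.786), and without responders 1 and 3 its r was -0.18. Flt3 and its ligand gene Flt3l gave r 0.199 (permutation p = 0.566, adjusted p = 0.686) and rho 0.382 (permutation p = 0.279, adjusted p = 0.558).

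Because the groups separate on Xcr1, its pairs were taken within the 6 responders only. There, Xcr1 and Clec9a gave r 0.386 (exact permutation p = 0.421, adjusted p = 0.588) and rho 0.6 (exact permutation p = 0.242, adjusted p = 0.423). Xcr1 and Batf3 gave r 0.221 (exact permutation p = 0.504, adjusted p = 0.588) and rho 0.6 (exact permutation p = 0.242, adjusted p = 0.423). Xcr1 and its ligand gene Xcl1 gave r 0.456 (exact permutation p = 0.328, adjusted p = 0.574) and rho 0.314 (exact permutation p = 0.564, adjusted p = 0.658). None of these 3 pairs gave a relation detectable with 6 tumors, and the pair of Clec9a and Batf3 was not among the 7.

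**Figure D4:**
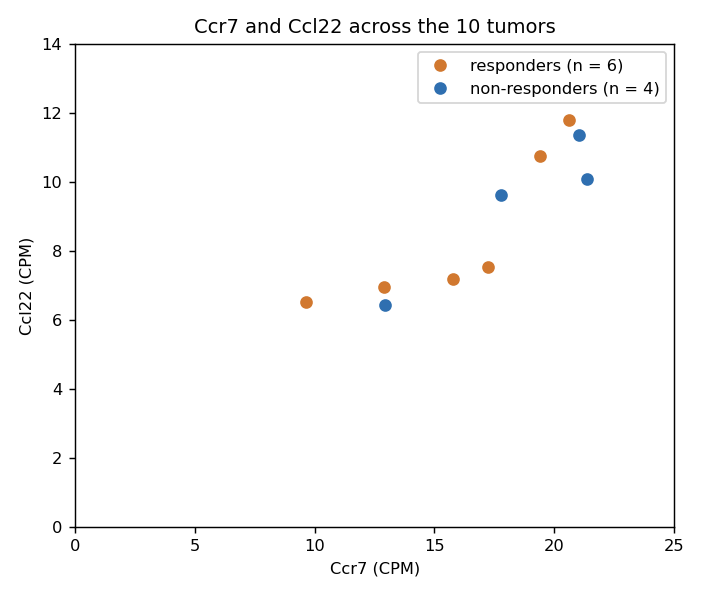
CPM of Ccl22 (y axis) against CPM of Ccr7 (x axis) in each of the 10 tumors, responders in orange and non-responders in blue. The tumors of both groups lie along 1 rising band. Responder 1 had the lowest Ccr7 (9.65 CPM, with Ccl22 at 6.53) and responder 2 the highest Ccl22 (11.8 CPM, with Ccr7 at 20.6). Non-responder 2 had the highest Ccr7 (21.4 CPM, with Ccl22 at 10.1) and non-responder 1 the lowest Ccl22 (6.42 CPM, with Ccr7 at 12.9).

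Levels of different genes can be set side by side only per length, here as counts per kilobase of annotated exon scaled to the same total over all genes in each tumor. Whether the deposited counts had been scaled by length is not given in the sources used here, and if they had, these levels and their order would be corrected for length again. On this scale Fscn1 was the most abundant at 201.1 ± 20.8 (SD, n = 10), followed by Ccr7 at 26.2 ± 6.14, Ccl22 at 11.7 ± 2.71, Batf3 at 7.96 ± 2.57, Clec9a at 7.15 ± 2.03, Cd209a at 6.65 ± 2.07, Il12b at 5.04 ± 1.07, Zbtb46 at 4.58 ± 0.455, Flt3 at 3.74 ± 0.556 and Xcr1 at 3.15 ± 1.64. Fscn1, Ccr7 and Ccl22 each lay above the next gene in all 10 tumors. Batf3 lay above Clec9a in 7 of 10, Clec9a above Cd209a in 7, Cd209a above Il12b in 8 and Il12b above Zbtb46 in 6, so that stretch of the order was not set in every tumor. It also depended on the length used, since with the longest transcript in place of all exons Zbtb46 (5.80) came above Clec9a (5.65), Cd209a (5.61) and Il12b (4.03), and Flt3 (4.62) above Il12b. Xcr1 was last by its mean over the 10 tumors, but Flt3 lay above it in only 7 of 10. Xcr1 was at 4.22 ± 1.14 (SD, n = 6) for responders against 1.54 ± 0.481 (SD, n = 4) for non-responders. Flt3 was at 3.74 ± 0.57 and 3.73 ± 0.62 in the same groups, so in responders the mean of Xcr1 was the higher.

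Other genes of each dendritic cell type or state were read from lists written with earlier results of these data known. Over all genes tested, 4.71% were called higher and 3.35% lower, and the median log2 fold change was -0.0086. A single call in a list is close to that share and not a result about the list. Of 10 further type 1 genes, 4 were called higher and none lower, with a median log2 fold change of 0.542. The 4 were Wdfy4, which cross-presentation requires (56.6 ± 3.91 against 45.7 ± 3.82 CPM, log2 fold change 0.31), the adhesion gene Cadm1 (113.5 ± 17.6 against 68.7 ± 21.3 CPM, 0.73), the lipid hydrolase Naaa (88.3 ± 14.9 against 58.7 ± 10.8 CPM, 0.59) and the transcription regulator Id2 (87.6 ± 10.7 against 62.0 ± 13.4 CPM, 0.50; SD, n = 6 and 4 throughout, edgeR adjusted p = 0.0306 to 0.0461). Cadm1, Naaa and Id2 are also expressed in other cells, and the cell source of the other genes in this list was not measured either. Irf8, a factor that type 1 cells depend on, and Tlr3, a receptor for double-stranded RNA, were named after their values were seen, at log2 fold changes of 0.66 and 0.59 (edgeR adjusted p = 0.0512 and 0.0726). Itgae (CD103), Snx22, Gcsam and Clnk, at under 12 CPM each, were not called, and Itgae was at 11.04 ± 2.50 against 11.2 ± 2.30 CPM. The type 1 list lost all its calls without responder 2, 3 or 5 or without non-responder 1 or 4, and had at most 6 with another tumor left out. With 1 tumor left out, no call remained in 5 of 10 fits for the type 2 list described next, in 8 for the general conventional list, in 7 for the maturation list and in 8 for the plasmacytoid list.

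Of 10 further type 2 genes, 2 were called higher and none lower, with a median log2 fold change of 0.528. Sirpa, a receptor for CD47 that macrophages also carry, was at 496.7 ± 107.4 CPM (SD, n = 6) in responder tumors and 305.6 ± 48.6 CPM (SD, n = 4) in the others, a log2 fold change of 0.70 (edgeR adjusted p = 0.0318). Cd1d1, which presents lipids to NKT cells, was at 9.99 ± 2.73 against 5.27 ± 1.66 CPM (log2 fold change 0.92, edgeR adjusted p = 0.0482). The lectin receptor gene Clec4a2 followed at 0.64 (edgeR adjusted p = 0.0529). Mgl2, named after its values were seen, went the other way at -0.62 (edgeR adjusted p = 0.0834), while its close paralog Clec10a was at 0.48 (edgeR adjusted p = 0.161). Cd1d1, Clec4a2, Mgl2 and Clec10a all have close paralogs that may divide reads.

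Of 8 genes used by conventional dendritic cells in general, 3 were called higher and none lower, with a median of 0.762. They belong to MHC class II presentation, which macrophages and B cells also use. H2-Eb1, a class II beta chain, was at 1272 ± 345.3 against 504.4 ± 247.9 CPM (log2 fold change 1.34, edgeR adjusted p = 0.0372), Cd74, the invariant chain, at 2901 ± 733.2 against 1329 ± 582.2 CPM (1.13, edgeR adjusted p = 0.0452), and Ciita, the class II transactivator, at 108.9 ± 16.1 against 52.6 ± 23.7 CPM (1.05, edgeR adjusted p = 0.0423; SD, n = 6 and 4). H2-Aa, a class II alpha chain, had groups that did not overlap and just missed the threshold (1535 ± 383.6 against 691.8 ± 343.5 CPM, log2 fold change 1.15, edgeR adjusted p = 0.0509; SD, n = 6 and 4). Itgax (CD11c), Dpp4, Cbfa2t3 and Relb were not called, at log2 fold changes of -0.039 to 0.47.

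Of 16 further maturation genes, 1 was called higher and none lower, and the median log2 fold change was 0.0625. The called gene was Cd83, a surface marker of mature dendritic cells and activated lymphocytes (33.9 ± 6.47 against 20.1 ± 5.47 CPM, log2 fold change 0.75, edgeR adjusted p = 0.0372; SD, n = 6 and 4). The costimulatory genes Cd86 and Cd40 followed at 0.35 and 0.67 (edgeR adjusted p = 0.0722 and 0.0777). The remaining 13 included Socs2, Cacnb3, Slco5a1, Traf1, Nr4a3 and the apoptosis inhibitor gene Birc3, none of which was called. The list's largest estimate was Pdcd1lg2 at 0.79 and its lowest Apol7c at -0.32 (edgeR adjusted p = 0.179 and 0.740). Both were named after their values were seen.

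Of 9 plasmacytoid dendritic cell genes tested from a list of 10, 1 was called higher and none lower, with a median of 0.235. It was Bst2, which interferon also raises in many cells (202.5 ± 12.7 against 138.1 ± 33.6 CPM, log2 fold change 0.55, edgeR adjusted p = 0.0378; SD, n = 6 and 4). The mitochondrial subunit gene Cox6a2 was at 0.97 and the lineage factor Tcf4 at -0.17 (edgeR adjusted p = 0.0619 and 0.104), and Siglech, the surface marker of this type, was at 10.3 ± 2.81 against 8.75 ± 0.427 CPM without a call.

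A list of 12 ligands and receptors was read as well, not all of them partners of the 10 genes (Csf2, Kitl and Cd40lg are not). Of these, 8 were tested and none was called by edgeR, although up to 4 were by another of the alternative fits. Xcl1, the ligand of Xcr1, was at 1.73 ± 0.63 CPM (SD, n = 6) in responder tumors and 0.804 ± 0.332 CPM (SD, n = 4) in the others, with no overlap and a log2 fold change of 1.09 (edgeR adjusted p = 0.0696). The IL-12 receptor chains Il12rb1 and Il12rb2 were at 0.83 and 0.72 (edgeR adjusted p = 0.0795 and 0.0836). Flt3l was at 18.04 ± 1.87 against 15.1 ± 2.004 CPM (log2 fold change 0.26, edgeR adjusted p = 0.121), and Ccr4, the receptor of Ccl22, at 0.877 ± 0.214 against 0.924 ± 0.170 CPM. Ccl21a, named after its values were seen, had the largest estimate of the 8, at a log2 fold change of 2.57 (edgeR adjusted p = 0.102). It was at 1.01 ± 0.764 against 0.166 ± 0.176 CPM, the groups overlapped, and it rested on 0 to 57 counts per tumor. Ccl19, Il12a, Il23a and Cd40lg stayed under the filter on low counts.

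**Figure D5:**
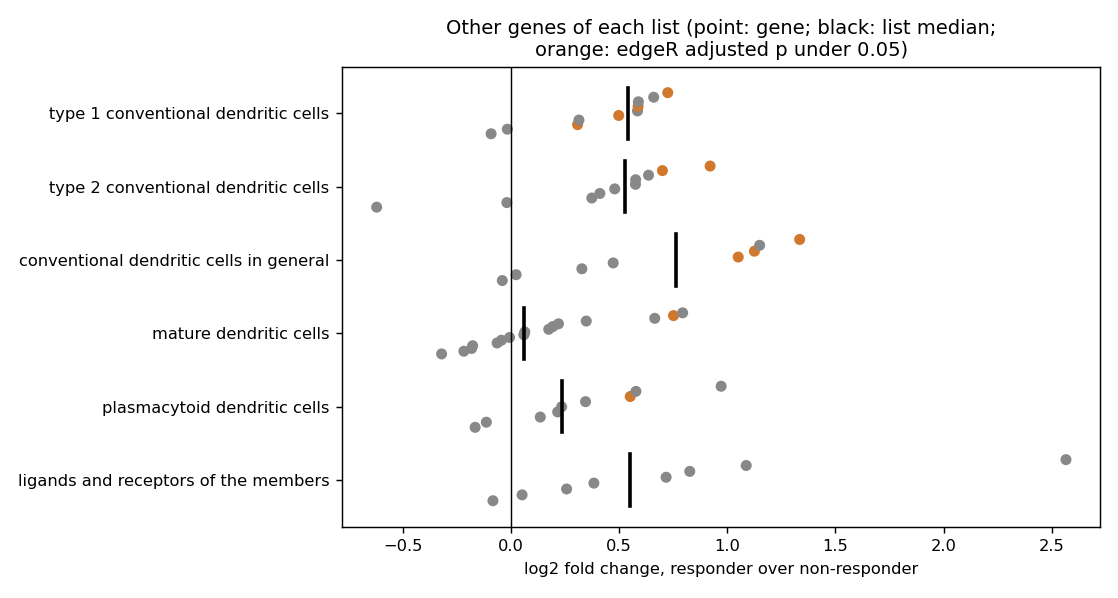
Log2 fold change, responder over non-responder (x axis), of the further genes in each list (y axis), 1 point per gene tested, with list medians as black lines and genes with an edgeR adjusted p under 0.05 in orange. Medians lie at 0.542 for type 1, 0.528 for type 2 and 0.762 for general conventional dendritic cell genes, and at 0.0625 for maturation genes. The median over all genes tested was -0.0086.

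Markers of other cells were read in the same fit. Of 8 macrophage markers, 5 were called higher, with summed levels of 2379 to 3578 CPM in responders and 1767 to 2330 CPM in non-responders. Of 4 monocyte markers tested 1 was called, of 5 NK cell markers 2 (summed 52.6 to 104.6 against 14.3 to 45.1 CPM) and of 6 T cell markers none (116.2 to 280 against 72.2 to 133.3 CPM). All 6 T cell estimates were nonetheless higher, with a median log2 fold change of 1.32. B cell markers summed to 4.52 to 9.65 against 3.03 to 5.30 CPM, with none called. The Langerhans cell marker Cd207 was at 1.28 CPM on average in both groups, and Epcam was near 0. The part of these cells in the dendritic cell lists was not tested. Of 6 skeletal muscle markers, 2 were called higher (summed 415.2 to 1289 against 362.8 to 489.2 CPM). Of 5 adipocyte markers tested none was called, although all 5 estimates were higher, with a median log2 fold change of 1.93 and sums of 21.7 to 68.6 against 11.5 to 29.5 CPM. Keratinocyte and endothelial markers had no call. Of 6 fibroblast markers, Pdgfrb was called lower. With 1 tumor left out, no call remained in 3 of 10 fits for macrophage markers, 7 for monocyte, 8 for NK cell, 6 for muscle and 5 for fibroblast markers. Without non-responder 4 no gene passed in edgeR, although 4106 had an unadjusted p under 0.05.

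The genes most like a dendritic cell gene in their pattern were ranked by Pearson's r of log2 CPM over the 10 tumors among 13723 genes with an average of at least 1 CPM. For Xcr1 they were Stat5b (r 0.993), Arhgap27 (0.986), Pou2f2 (0.978), Gm15931 (0.976) and Rassf4 (0.974), genes that differ between the groups because they were ranked against a gene that does. Within the 6 responders their r was 0.972, 0.942, 0.994, 0.851 and 0.857 in that order. For Clec9a they were Sp4 (0.986), Gm8995 (0.986), Atf3 (0.981), Gpr31c (0.979) and 9130208D14Rik (0.978), none of them called.

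For Ccr7 the list was Itgae (0.920), She (0.910), Immp2l (0.893), Gzmg (0.892) and Casc1 (0.881). For Ccl22 it was Flrt3 (0.893), Casc1 (0.888), Dffb (0.887), Il2ra (0.871) and Tmed2 (0.860). Casc1 was in both. Itgae is carried by type 1 cells and by resident T cells, and Il2ra by regulatory T cells and mature dendritic cells, so each points to more than 1 cell type. These names are the top of a ranking of 13723 genes over 10 tumors and are a description.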

How the data were processed

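PolyA RNA was sequenced from 6 responder and 4 non-responder tumors, grouped by the response in the labels and numbered in accession order, which pairs nothing. The authors quantified reads with kallisto against GRCm38 (mm10) and collapsed transcripts to genes with tximport. The deposited values are estimated counts, with no depth scaling, fractional for 45.1% of values. The annotation release, strand setting and tximport scaling were not given in the sources used here. Reads of close paralogs and overlapping genes may be divided between them.

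Counts were rounded and tested in R 4.3.3 with edgeR 4.0.16 (TMM, filterByExpr with minimum count 10 and minimum total 15, glmQLFTest, two-sided, Benjamini-Hochberg over 16041 genes, threshold 0.05). The SE is the log2 fold change over the square root of F, and 95% intervals use the t quantile. CPM is per TMM-scaled library. Log2 CPM used a prior count of 2. Correlations used 100000 permutations over 10 tumors and exact ones over 6. The fit was also run on counts simulated from its own dispersions with independent tumors, which does not show how stable calls are in these tumors. Alternatives were RLE or upper-quartile scaling, DESeq2 1.42.0, limma-voom (limma 3.58.1), no filter, the study's minimum CPM, unrounded or thinned counts, Ptprc as a covariate, and leaving out each tumor. Exon lengths came from GENCODE on GRCm38, and promoters from RefSeq on GRCm38.p6.

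The 10 genes and the lists were chosen with earlier results of these data known. Named genes were the 10, all called genes and the 3 smallest p of each dendritic cell list, Ptprc, and the 5 genes most like Xcr1, Clec9a, Ccr7 and Ccl22.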

Additional observations from a re-analysis of the deposited data

Results flagged for a closer look

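Batf3 in non-responder 1 lay far from the other tumors of its group. It was at 1.53 CPM where the other 3 non-responders lay between 3.71 and 4.03 CPM, a gap of 0.871 of the group's whole range. It was the 1 tumor so marked among 20 groups of values (the 10 genes in each response group), where chance marks about 1. The same tumor was also the lowest of the 10 for Xcr1, Clec9a and Ccl22.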

How the results depend on the processing

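No paired analysis was possible because the labels carry no number that links tumors across groups. Settings were changed one at a time. The call of Xcr1 held in 15 of 19 alternatives and its direction in 19 of 19, with log2 fold changes of 0.67 to 1.69. Leaving out 1 tumor gave 0 to 2 calls among the 10 genes, 0 to 1148 genes higher and 0 to 749 lower, all 0 without non-responder 4. DESeq2 called 2 of the 10 genes, 1543 genes higher and 1059 lower. Without a filter, 299 genes were lower. Ptprc itself separates the groups. With Ptprc as a covariate, 0 of the 10 genes, 0 genes higher and 0 lower passed, and signs turned for Clec9a (-0.0024), Batf3 (-0.19), Flt3 (-0.14), Fscn1 (0.15), Il12b (-0.11), Clec4a2 (-0.031), Cd86 (-0.0298) and Il12rb2 (-0.13). Leaving out 1 tumor put Flt3 between -0.061 and 0.12 and Fscn1 between -0.089 and 0.025, and thinned libraries put Fscn1 at 0.000802. The correlation of Ccr7 with Fscn1 was -0.18 without the 2 tumors farthest from the median. The causes were not tested. Batf3, Zbtb46, Cd209a, Ccr7, Fscn1, Il12b, Flt3 and Ccl22 were called in 0 alternatives. Counts as low as 38 (Batf3) limit the precision of the scarcer genes.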
